A study of Homo sapiens with 4 samples.

Results

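TXNIP, 4 of its relatives in the alpha-arrestin family (ARRDC1, ARRDC2, ARRDC3 and ARRDC4) and MLXIP, the transcription factor also called MondoA, were followed in U87MG spheres that had been kept with abemaciclib or left untreated. The 6 genes were found by their names among the 60617 genes of each count table. They were chosen from the same comparison between abemaciclib and untreated spheres that is described here, so their values are given as a description and without a test. Abemaciclib is a small-molecule inhibitor of the cell cycle kinases CDK4 and CDK6. U87MG is a single established human glioblastoma line, grown here as floating spheres. The medium was DMEM/F12 with 20 ng/ml EGF, bFGF at 20 ng/ml, 2% B27 and N2 supplement, and RNA was taken at day 14. The abemaciclib group and the untreated group had 2 poly-A RNA libraries each. The sources used here do not state the dose of abemaciclib or whether untreated spheres received a vehicle.

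Alpha-arrestins are adaptor proteins with an arrestin fold, related to the beta-arrestins that silence G protein-coupled receptors. Most carry PPxY motifs near their C terminus, through which they recruit ubiquitin ligases of the NEDD4 family to membrane proteins and send those proteins to endosomes. TXNIP also binds reduced thioredoxin and blocks it, and it promotes the internalisation of the glucose transporters GLUT1 and GLUT4, so that high TXNIP lowers glucose uptake. Transcription of TXNIP and ARRDC4 responds to glucose: MondoA and its partner MLX move to the nucleus when glucose phosphates build up and bind paired E-boxes, called carbohydrate response elements, in both promoters.

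Among the 6 genes, TXNIP had the widest difference between the groups. ARRDC3 and ARRDC4 differed side by side, and ARRDC2, not shown here, was close to both (log2 fold change -1.88). The sequences before the transcription starts of TXNIP, ARRDC4 and ARRDC3 are shown. Each is the 250 bases before the most upstream RefSeq start (build GRCh38.p14), written 5′ to 3′ on the gene's strand. Capitals mark matches, on either strand, to 4 motifs that were searched: 2 copies of CACGNG with any 5 bases between them (1 spelling of a carbohydrate response element), the E-box CACGTG, the CCAAT box CCAAT, and GTAAACA, which forkhead factors can bind. The motifs were chosen after the sequences had been seen, and no 2 matches overlapped in these 3 sequences. TXNIP lies at chr1:145996580-145996829 on the minus strand, ARRDC4 at chr15:97960453-97960702 on the plus strand and ARRDC3 at chr5:91383318-91383567 on the minus strand.
TXNIP: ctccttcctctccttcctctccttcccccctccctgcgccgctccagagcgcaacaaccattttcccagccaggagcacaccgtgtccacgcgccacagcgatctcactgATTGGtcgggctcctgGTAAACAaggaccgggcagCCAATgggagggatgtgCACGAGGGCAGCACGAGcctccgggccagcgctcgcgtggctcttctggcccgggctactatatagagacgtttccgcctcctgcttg
ARRDC4: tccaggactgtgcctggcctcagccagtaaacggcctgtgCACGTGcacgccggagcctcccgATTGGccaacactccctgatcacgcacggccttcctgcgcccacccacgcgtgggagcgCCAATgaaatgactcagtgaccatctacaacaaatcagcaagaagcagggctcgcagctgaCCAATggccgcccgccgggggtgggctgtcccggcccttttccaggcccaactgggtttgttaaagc
ARRDC3: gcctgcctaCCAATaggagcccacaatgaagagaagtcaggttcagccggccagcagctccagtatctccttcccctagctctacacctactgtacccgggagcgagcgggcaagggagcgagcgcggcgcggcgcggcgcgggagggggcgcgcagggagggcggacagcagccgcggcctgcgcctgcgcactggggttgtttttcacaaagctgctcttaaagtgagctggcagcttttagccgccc

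The TXNIP sequence held 1 spaced E-box pair, beginning 88 bases before the start, and it lay next to a pair of CCAAT boxes (140 and 105 bases before the start) and 1 forkhead motif (124 bases before). The spaced pair, in this spelling, was present in 16 of 35116 RefSeq promoter windows of the same length (0.046%). The spelling was chosen after the TXNIP sequence had been seen, so this share gives the match no weight. The ARRDC4 sequence held 1 E-box, 210 bases before the start, and 3 CCAAT boxes, and no match to the spaced pair as spelled here. An E-box was found in 6.345% of all windows and a CCAAT box in 32.008%. The ARRDC3 window shown held 1 CCAAT box, and its second RefSeq start had 1 forkhead motif 29 bases upstream, a motif present in 2.979% of all windows. The windows of ARRDC1 and MLXIP held 1 CCAAT box each, and so did that of the second RefSeq start of ARRDC2. The windows of the second TXNIP start and the first ARRDC2 start held 0 matches to the 4 motifs. A match describes letters and not binding, which was not measured.

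The libraries held 23684260 and 33226884 expected counts (abemaciclib, replicates 1 and 2) and 27485206 and 33418075 (untreated). Mitochondrially encoded genes took 11.8% and 11.7% of the counts in the abemaciclib libraries and 4.27% and 4.66% in the untreated ones. Both replicate pairs varied beyond counting noise (chi-square over its degrees of freedom was 1.95 for abemaciclib and 3.56 for untreated), and each library was counted as 1 sample. No label says that the libraries came from separate cultures, so the spread behind each p-value is that of these 4 libraries and may be technical. The 6 glioma markers were VIM, CD44, NES, SPARC, S100A6 and LGALS1. They summed to 8883 to 8915 CPM (expected counts relative to TMM-adjusted library size) in abemaciclib libraries and 12829 to 13606 CPM in untreated ones. All 6 fell (median log2 fold change -0.47), though 5 rather than 6 passed the threshold with scaling by library totals alone. CDKN2A, which is deleted in U87MG, was at 0 in all 4 libraries, and the stem cell marker SOX2 stood at 0.457 and 0.354 CPM with abemaciclib and 0.037 and 0.0611 CPM without, where 3 counts are 0.0886 to 0.125 CPM. Of the 7 genes listed as deleted or near silent in this line, 3 were tested, with SOX2 higher and PROM1 and OLIG2 lower. The 8 microglia and macrophage markers summed to 6.26 to 7.06 CPM with abemaciclib and 11.96 to 12.6 CPM without, with AIF1 at 0 throughout, 3 tested, PTPRC higher and CSF1R and CD14 lower. The 6 endothelial markers summed to 26.5 to 27.2 CPM with abemaciclib and 26.0 to 28.8 CPM without, with CDH5 and CLDN5 at 0.125 CPM or less in every library, 4 tested, VWF and KDR higher, PECAM1 lower and TEK not past the threshold. The part of these differences in the values below was not tested. The marker calls stand beside 38.0% higher and 39.3% lower (edgeR adjusted p under 0.05) among all 17207 genes tested. In bulk RNA, fewer cells of a kind and less RNA per cell cannot be told apart.

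TXNIP was far lower after abemaciclib. The gene (ENSG00000265972, GRCh38 chromosome 1, 145992435 to 145996600, minus strand) had 245 and 252 CPM in the abemaciclib libraries, against 1935 and 1845 CPM in the untreated libraries. The groups did not overlap, and replicates lay within 3.04% (abemaciclib) and 4.75% (untreated) of each other. In raw terms these were 5889 and 8542 expected counts with abemaciclib and 52249 and 60390 without. The means were 248 ± 5.33 CPM with abemaciclib and 1890.2 ± 63.4 CPM without (SD, n = 2 each), a log2 fold change of -2.93 ± 0.03 (SE), or 7.61-fold lower after the drug. Of all 17207 genes tested, 3.56% had a log2 fold change as low or lower. TXNIP ranked 605 and 574 by count among all genes in the abemaciclib libraries and 52 and 54 in the untreated ones.

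ARRDC4, the closest relative of TXNIP in glucose responsiveness and itself a brake on glucose uptake, had 23.4 and 21.7 CPM after abemaciclib, against 85.0 and 77.1 CPM in untreated spheres. ARRDC4 (ENSG00000140450, chromosome 15, 97960698 to 97973838, plus strand) averaged 22.6 ± 1.20 CPM with the drug and 81.1 ± 5.56 CPM without (SD, n = 2 each), a log2 fold change of -1.85 ± 0.06 (SE). The abemaciclib libraries lay below both untreated libraries.

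ARRDC3, an adaptor that recruits NEDD4 and sends integrin beta-4 to degradation, had 14.8 and 13.5 CPM after abemaciclib, against 53.1 and 49.2 CPM in untreated spheres. ARRDC3 (ENSG00000113369, chromosome 5, 91368724 to 91383359, minus strand) averaged 14.1 ± 0.967 CPM with the drug and 51.2 ± 2.74 CPM without (SD, n = 2 each), a log2 fold change of -1.86 ± 0.07 (SE). ARRDC2, a less studied member of the family, had 8.64 and 7.73 CPM after abemaciclib, against 29.5 and 30.3 CPM in untreated spheres. ARRDC2 (ENSG00000105643, chromosome 19, 18001132 to 18014102, plus strand) averaged 8.19 ± 0.640 CPM with the drug and 29.9 ± 0.584 CPM without (SD, n = 2 each), a log2 fold change of -1.88 ± 0.08 (SE). The log2 fold changes of ARRDC2, ARRDC3 and ARRDC4 lay within 1 standard error of one another.

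ARRDC1, which recruits TSG101 to the plasma membrane and buds small vesicles from it, differed least among the 4 ARRDC genes. ARRDC1 (ENSG00000197070, chromosome 9, 137605654 to 137615360, plus strand) had 9.26 and 8.32 CPM after abemaciclib, against 19.5 and 20.7 CPM in untreated spheres. Its means were 8.79 ± 0.664 CPM with the drug and 20.1 ± 0.870 CPM without (SD, n = 2 each), a log2 fold change of -1.21 ± 0.09 (SE). Here too the groups did not overlap.

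MLXIP, the glucose-sensing activator of TXNIP and ARRDC4, stood slightly higher after the drug. MLXIP (ENSG00000175727, chromosome 12, 122078722 to 122147347, plus strand) had 154 and 149 CPM in the abemaciclib libraries, against 131 and 125 CPM in the untreated libraries. Its means were 152 ± 3.57 CPM with the drug and 128 ± 4.50 CPM without (SD, n = 2 each), a log2 fold change of 0.24 ± 0.04 (SE). The groups did not overlap, and on the log2 scale the gap between them was small beside that of the other 5 genes.

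**Figure D1:**
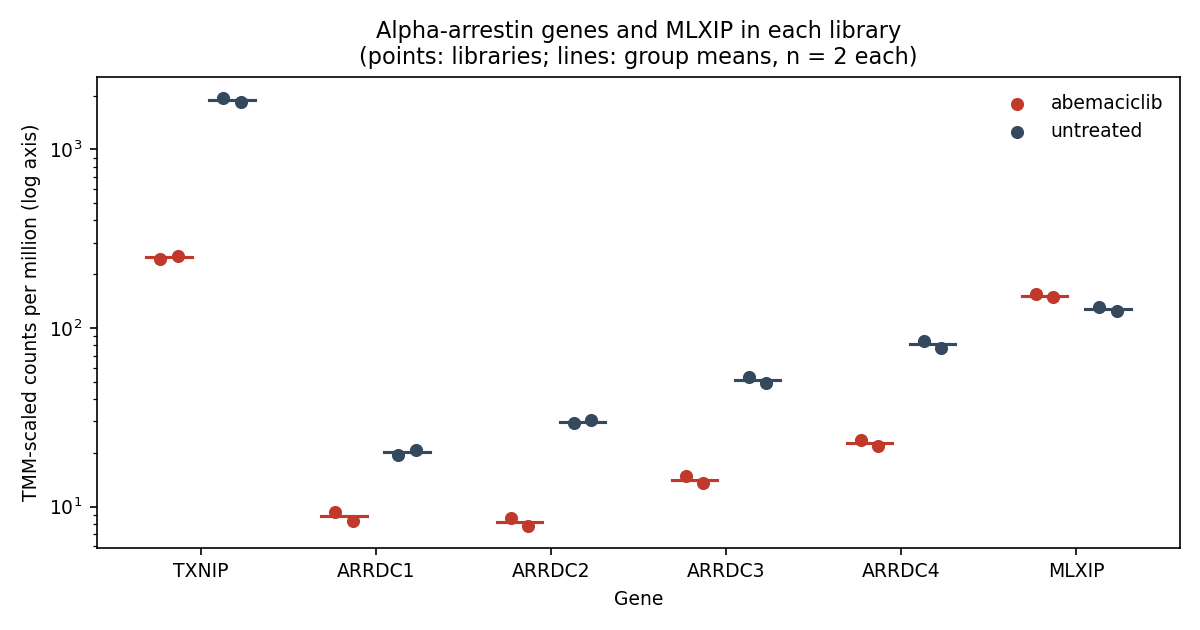
TMM-scaled CPM (log axis) of TXNIP, ARRDC1 to ARRDC4 and MLXIP in each library, with abemaciclib libraries left of untreated ones; points are libraries and lines are group means (n = 2 each). The abemaciclib points lie below the untreated points for 5 genes, from 245 and 252 against 1935 and 1845 CPM for TXNIP to 9.26 and 8.32 against 19.5 and 20.7 CPM for ARRDC1, and above them for MLXIP.

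All 6 genes passed the filter on low counts, had whole-number counts in every library and had at least 208 counts in each. In 5 genes the abemaciclib libraries lay below the untreated ones and in 1 above them. Such non-overlap held for 87.9% of all tested genes (44.5% with abemaciclib lower, 43.4% higher), and since this comparison chose the 6 genes nothing is read from their count. Their median log2 fold change was -1.85, beside -0.01 over all genes tested. A drop of at least 2-fold was found in 17.7% of tested genes. The values of ARRDC2, ARRDC3 and ARRDC4 had 8.19%, 8.32% and 8.40% of all tested genes at or below them, that of ARRDC1 had 14.4%, and that of MLXIP had 61.6%.

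**Figure D2:**
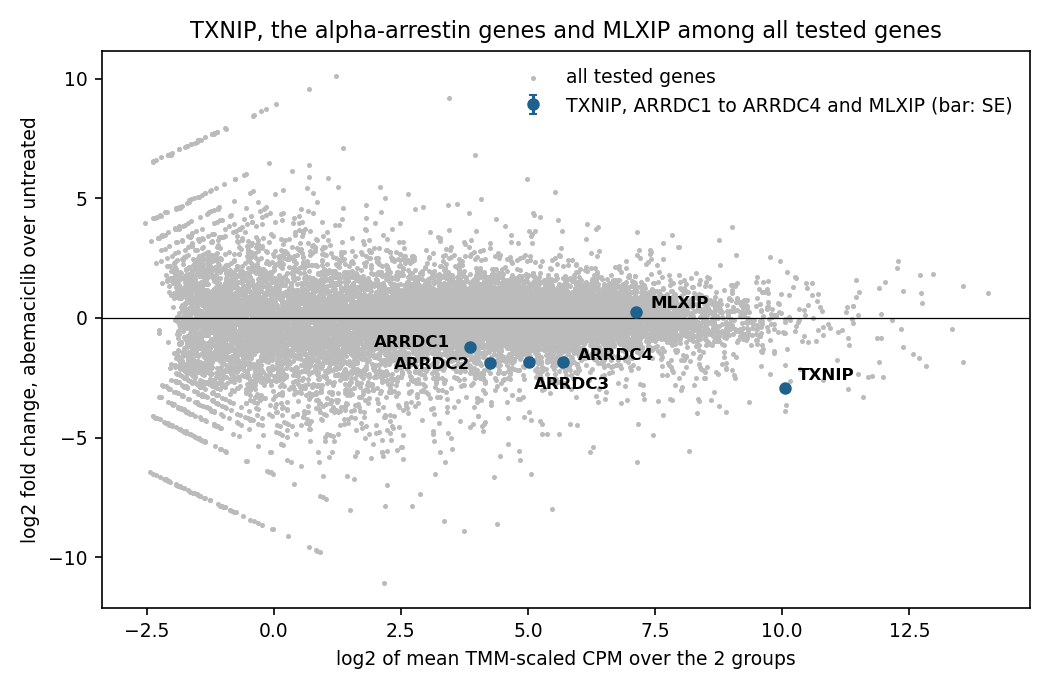
Log2 fold change (abemaciclib over untreated) of every tested gene, in grey, against the log2 of its mean TMM-scaled CPM over the 2 groups, with TXNIP, ARRDC1 to ARRDC4 and MLXIP in blue and their standard errors as bars, which are smaller than most points. TXNIP lies at -2.93 among the more abundant genes, the 4 ARRDC genes lie between -1.88 and -1.21, and MLXIP lies at 0.24.

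Ratios of counts within a library do not depend on how libraries are scaled to each other. For each MLXIP count there were 1.58 and 1.69 TXNIP counts in the abemaciclib libraries, against 14.7 and 14.8 in the untreated ones. For each ARRDC4 count there were 10.4 and 11.6 TXNIP counts with abemaciclib and 22.8 and 23.9 without, so TXNIP differed more than ARRDC4 in every library pair. The ratio of ARRDC4 to ARRDC3 counts was 1.58 and 1.61 with abemaciclib and 1.60 and 1.57 without, and these ranges overlap. The ratio of ARRDC1 to ARRDC3 was 0.625 and 0.618 with abemaciclib and 0.368 and 0.421 without. TXNIP made up 81.3% and 83.1% of the counts of the 5 alpha-arrestin genes in abemaciclib libraries and 91.2% in both untreated libraries. Together the 5 genes held 300.8 and 303 CPM with abemaciclib and 2122 and 2023 CPM without.

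**Figure D3:**
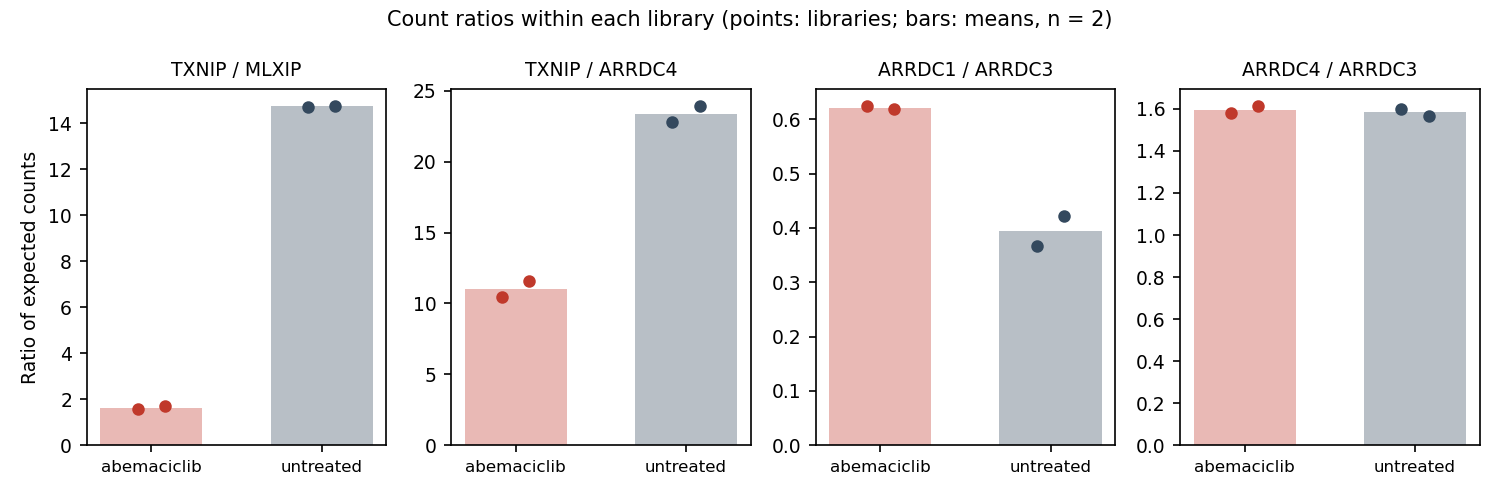
Ratios of expected counts between pairs of genes within each library (points) with group means (bars from 0, n = 2 each), abemaciclib left of untreated. TXNIP per MLXIP is 1.58 and 1.69 with abemaciclib and 14.7 and 14.8 without, TXNIP per ARRDC4 and ARRDC1 per ARRDC3 also separate the groups, and ARRDC4 per ARRDC3 stays between 1.57 and 1.61.

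Levels of different genes were compared per length, as mean CPM per kilobase of the median GENCODE transcript of each gene. TXNIP led in both groups, at 119.7 ± 2.57 CPM per kilobase with abemaciclib and 911 ± 30.6 without (SD, n = 2 each). MLXIP came next, at 29.8 ± 0.700 CPM per kilobase with abemaciclib and 25.2 ± 0.882 without. With abemaciclib, ARRDC1 (5.54 ± 0.418) and ARRDC4 (5.54 ± 0.295) followed, then ARRDC3 (3.38 ± 0.231) and ARRDC2 (3.25 ± 0.255), all as levels in CPM per kilobase. Neither of these 2 pairs was separated by more than its spread. Without the drug, ARRDC4 stood at 19.9 ± 1.37 CPM per kilobase, above ARRDC1 (12.7 ± 0.549), ARRDC3 (12.2 ± 0.655) and ARRDC2 (11.9 ± 0.232). Of these, ARRDC3 did not differ from ARRDC1 or from ARRDC2 beyond their spread, while the libraries of ARRDC1 lay above those of ARRDC2. ARRDC4 therefore shared its place with ARRDC1 after abemaciclib and stood above it in untreated spheres.

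Genes annotated at the same loci were read beside the alpha-arrestins. ARRDC1-AS1 overlaps the 3′ end of ARRDC1 by 29 bases on the opposite strand, and it had 20.2 and 19.6 CPM after abemaciclib, against 19.9 and 20.8 CPM in untreated spheres (log2 fold change -0.04 ± 0.07, edgeR adjusted p = 0.658). The groups overlapped there. For each ARRDC1-AS1 count there were 0.459 and 0.425 ARRDC1 counts with abemaciclib, against 0.981 and 0.996 without. ARRDC3-AS1 overlaps ARRDC3 by 3011 bases on the opposite strand and was sparse, with 19 and 34 counts after abemaciclib and 11 and 15 counts in untreated spheres (1.05 ± 0.40, edgeR adjusted p = 0.0169). That call was past the threshold in 5 of 9 alternative fits (adjusted p 0.0123 to 0.1805), and it was lost with DESeq2, without abemaciclib replicate 2 and without either untreated replicate. Whether counting used the strand is not stated in the sources used here, so reads of ARRDC3 and ARRDC3-AS1 in their overlap cannot be told apart. AL590627.3, annotated over most of ARRDC1 on its own strand, and AC020904.3, opposite ARRDC2, had 0 counts in every library. ARRDC5, the remaining member of the family, had 0 counts in both abemaciclib libraries and in untreated replicate 1, and 1 count in untreated replicate 2.

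The genes whose profiles over the 4 libraries lay closest to TXNIP, by distance in centred log2(CPM + 1) among 9605 genes with a mean of at least 10 CPM, were NAT16 (distance 0.0555), VEGFA (0.0687) and IRF7 (0.0793). VEGFA, which encodes the angiogenic growth factor, had 573 and 567 CPM with abemaciclib and 4510.0 and 4430 CPM without. NAT16 had 2.37 and 2.63 CPM with abemaciclib and 25.5 and 24.4 CPM without. The log2 fold changes of NAT16 (-3.30) and IRF7 (-3.34) were further from 0 than that of TXNIP (-2.93). The 1 added to each CPM shrinks the differences of such scarce genes, so the distance understates how far they lie from TXNIP. The closest to ARRDC3 were ARRDC4 (0.0319), HMGB2 (0.0531) and HDAC6 (0.0538). The closest to ARRDC4 were HMGB2 (0.0304), ARRDC3 (0.0319) and HCFC1R1 (0.0441). ARRDC3 and ARRDC4 thus stood among each other's 3 nearest genes. Nearest genes were not searched for ARRDC2, whose log2 fold change (-1.88) lay within 1 standard error of both. A likeness particular to ARRDC3 and ARRDC4 is therefore not shown. The distance is taken over 4 libraries in 2 groups, so genes with a similar difference between the groups in log2(CPM + 1) lie close.

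The other genes of the pathway were counted in 12 lists and tested with all genes by edgeR's quasi-likelihood test. Over all 17207 genes tested, 77.3% passed an adjusted p of 0.05, with 38.0% higher and 39.3% lower after abemaciclib, and each list is read beside those shares. Most genes of the network that MLXIP belongs to fell. Of 11 tested genes of the MLX and MAX network, 7 fell, 2 rose and 2 did not pass, with a median log2 fold change of -0.53. MLX, the obligate partner of MondoA, had 51.5 and 48.5 CPM after abemaciclib, against 67.1 and 66.6 CPM in untreated spheres (-0.42 ± 0.05, edgeR adjusted p = 9.39e-10). MLXIPL, the paralog of MondoA known as ChREBP, fell to 3.07 and 4.04 CPM in abemaciclib libraries, against 19.5 and 20.2 CPM in untreated ones (-2.45 ± 0.12). MXI1, a MAX partner that represses MYC targets, fell (-1.91 ± 0.07), and MAX (0.18 ± 0.04) and MXD4 (0.23 ± 0.03) rose slightly. MLXIP counts per MLX count were 3.00 and 3.08 with abemaciclib and 1.96 and 1.88 without.

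Other glucose-responsive targets of MondoA and ChREBP were split. Of 16 tested, 7 rose, 7 fell and 2 did not pass, with a median log2 fold change of -0.17 that became 0.045 when low-count genes were kept. The glycolytic activator PFKFB3 fell (-3.002 ± 0.04), with 60.2 and 54.2 CPM after abemaciclib and 469 and 443 CPM in untreated spheres. The repressor BHLHE40 fell too (-2.14 ± 0.09). LPIN1, an enzyme of triglyceride synthesis, rose (1.36 ± 0.05), as did PFKFB2 (1.28 ± 0.11), a second enzyme of the fructose-2,6-bisphosphate switch. The 7 that rose also included the fatty acid synthesis genes ACACA, ACLY, FASN, SCD and ELOVL6, named after their values were seen. The 7 that fell also included RGS16, PPP1R3B, KLF10, TKFC and HK2, likewise named after their values were seen.

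Genes of the thioredoxin and peroxiredoxin system, whose thioredoxin TXNIP inhibits, were mostly higher. All 24 tested genes passed, 20 higher and 4 lower, with a median log2 fold change of 0.46. TXN, the thioredoxin that TXNIP binds, had 119 and 117 CPM after abemaciclib, against 108 and 107 CPM in untreated spheres, a small rise (0.13 ± 0.04, edgeR adjusted p = 1.16e-03). Thioredoxin reductase TXNRD1 rose to 143 and 149 CPM in abemaciclib libraries, against 80.7 and 79.9 CPM in untreated ones (0.86 ± 0.04). The methionine sulfoxide reductase MSRA (1.54 ± 0.11) and the peroxiredoxin PRDX2 (0.97 ± 0.04) rose furthest among genes of at least 5 CPM. Glutaredoxin GLRX (-1.27 ± 0.03) and MAP3K5 (-1.06 ± 0.12), the kinase ASK1 that thioredoxin holds inactive, fell. So did PRDX1 (-0.19 ± 0.03) and the scarce NXN (-3.54 ± 0.51), both named after their values were seen. For each TXN count there were 2.05 and 2.15 TXNIP counts with abemaciclib and 17.9 and 17.2 without.

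The glucose transporters and hexokinases changed in both directions. All 12 tested genes passed, 5 higher and 7 lower, with a median log2 fold change of -0.50. SLC2A3, the neuronal transporter GLUT3, fell to 61.0 and 62.9 CPM in abemaciclib libraries, against 503 and 413 CPM in untreated ones (-2.88 ± 0.16, edgeR adjusted p = 2.62e-03). SLC2A1, which encodes the TXNIP cargo GLUT1, fell to 95.7 and 98.3 CPM, against 276 and 221 CPM in untreated libraries (-1.35 ± 0.17, edgeR adjusted p = 0.0146). Its call was lost without abemaciclib replicate 2 (edgeR adjusted p = 0.118), and it held in 8 of 9 alternatives. HKDC1, a hexokinase domain protein (3.11 ± 0.08), and SLC2A6, the lysosomal transporter GLUT6 (2.37 ± 0.08), rose. The more abundant hexokinases, named after their values were seen, differed in direction: HK1 rose (0.88 ± 0.03) and HK2 fell (-0.43 ± 0.04). SLC2A4, which encodes the TXNIP cargo GLUT4 and was named after its values were seen, was not tested, at 0.0415 and 0.0295 CPM with abemaciclib and 0.222 and 0.336 CPM without.

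Genes of the ligases that alpha-arrestins recruit changed in both directions. Of 13 tested genes of NEDD4-family ligases and their adaptors, 5 rose, 7 fell and 1 did not pass, with a median log2 fold change of -0.15. NEDD4 (-0.67 ± 0.05) and ITCH (-0.52 ± 0.05), the ligase that ubiquitinates TXNIP, fell. WWP2 (0.86 ± 0.07) and HECW2 (1.19 ± 0.10) rose. NEDD4L had 19.5 and 19.2 CPM after abemaciclib, against 24.4 and 21.4 CPM in untreated spheres (-0.24 ± 0.08, edgeR adjusted p = 6.73e-03). That call was lost with DESeq2 and without untreated replicate 1 (edgeR adjusted p = 0.168, with 5.53e-04 to 0.168 over 9 alternatives). Of 26 tested genes of the ESCRT machinery, which cuts vesicles from membranes, 12 rose, 9 fell and 5 did not pass, with a median of 0.14. TSG101, the ESCRT subunit that ARRDC1 binds, had 35.9 and 38.2 CPM with abemaciclib and 37.4 and 38.7 CPM without, and the groups overlapped (-0.03 ± 0.06, edgeR adjusted p = 0.593). CHMP3 (1.28 ± 0.04) and VPS37A (0.76 ± 0.05) rose and CHMP1B (-1.07 ± 0.05) and CHMP2A (-0.47 ± 0.04) fell.

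Of 6 other genes with an arrestin fold that were tested, 2 rose, 2 fell and 2 did not pass. Their median log2 fold change was -0.05, which became 0.0034 with scaling by library totals alone. The beta-arrestin ARRB2 had 39.0 and 37.2 CPM after abemaciclib, against 40.8 and 39.7 CPM in untreated spheres (-0.08 ± 0.05, edgeR adjusted p = 0.174). ARRB1 was at 8.06 and 7.35 CPM with the drug and 9.30 and 9.75 CPM without (-0.31 ± 0.11, edgeR adjusted p = 0.0129). The ARRB1 call was lost without abemaciclib replicate 2 (edgeR adjusted p = 0.145), without untreated replicate 2 (edgeR adjusted p = 0.0652) and with DESeq2, and it ranged from 0.0130 to 0.145 over 9 alternatives. The retromer subunits VPS26A (1.05 ± 0.05) and VPS26B (0.47 ± 0.06) rose and RGP1, a subunit of a RAB6 exchange factor, fell (-0.19 ± 0.04). The difference between the 2 kinds of arrestin genes was not tested, and nothing is read from it because this comparison chose the alpha-arrestin genes.

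Among 9 tested genes for cargo of the alpha-arrestins, 2 rose, 5 fell and 2 did not pass, with a median log2 fold change of -0.12 that became 0.037 when low-count genes were kept. The 5 that fell became 3 with DESeq2, with library totals or without abemaciclib replicate 2. The insulin receptor INSR (-1.83 ± 0.09) and NOTCH1 (-1.48 ± 0.07) fell, and the iron transporter SLC11A2 (0.46 ± 0.04) and YAP1 (0.50 ± 0.03) rose. ITGB4, the integrin that ARRDC3 sends to degradation, was scarce and fell to 0.582 and 0.709 CPM in abemaciclib libraries, against 2.59 and 3.15 CPM in untreated ones (-2.13 ± 0.29).

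Genes of upstream regulators were counted last, and whether any regulator accounts for the values of the 6 genes was not tested. TXNIP, ARRDC2 and ARRDC3 are known to be induced by glucocorticoids. Of 12 tested glucocorticoid-related genes, 10 fell, 0 rose and 2 did not pass, with a median log2 fold change of -1.61. The clock gene PER1 fell to 17.7 and 17.3 CPM in abemaciclib libraries, against 105 and 99.6 CPM in untreated ones (-2.54 ± 0.05), and ERRFI1, a feedback inhibitor of EGFR, fell as well (-2.52 ± 0.14). DUSP1 (-1.06 ± 0.03) and the glucocorticoid receptor itself, NR3C1 (-1.08 ± 0.04), had the smallest falls. NR3C1 had 41.0 and 40.4 CPM after abemaciclib, against 86.8 and 85.0 CPM in untreated spheres. FKBP5 (0.15 ± 0.11) and SGK1 (0.05 ± 0.07), both induced by the receptor in many cells and named after their values were seen, were the 2 that did not pass. FOXO factors also bind the TXNIP promoter in other cells. Of 18 tested FOXO genes and targets, 13 fell and 5 rose, with a median of -0.86. FOXO4 (-2.66 ± 0.12) and CCNG2 (-2.32 ± 0.08) fell, and PIK3IP1 (3.65 ± 0.13) and GADD45A (0.86 ± 0.06) rose. SOD2 carries more than 1 gene identifier, and only 1 of them entered the FOXO list. HK2, INSR and PDK4 each stand in more than 1 list.

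AMPK phosphorylates TXNIP and hastens its breakdown. Of 9 tested genes of AMPK subunits and the LKB1 complex, 6 rose, 2 fell and 1 did not pass, with a median log2 fold change of 0.19. PRKAG2 (1.02 ± 0.05) and PRKAA1 (0.44 ± 0.08) rose and STK11, which encodes LKB1, fell (-0.36 ± 0.04). PRKAB1 was close to the threshold (-0.15 ± 0.07, edgeR adjusted p = 0.0471) and passed it in 2 of 9 alternatives (adjusted p 0.0458 to 0.250), being lost without each library in turn. TXNIP can also bind NLRP3, and of 6 tested inflammasome genes 2 rose, 2 fell and 2 did not pass, with a median of -0.11. NLRP1 fell (-2.56 ± 0.07), GSDMD fell by 0.14 ± 0.05 on the log2 scale (edgeR adjusted p = 8.06e-03), and the protease CASP1 (0.75 ± 0.16) and NEK7 (0.31 ± 0.09), a kinase that activates NLRP3, rose. The GSDMD call was lost in 4 of 9 alternatives, among them without abemaciclib replicate 2 (edgeR adjusted p = 0.186) and without untreated replicate 1 (edgeR adjusted p = 0.0815), and it ranged from 2.87e-03 to 0.186. NLRP3, named after its values were seen, was not tested, at 0.0415 and 0.118 CPM with abemaciclib and 0.333 and 0.306 CPM without.

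**Figure D4:**
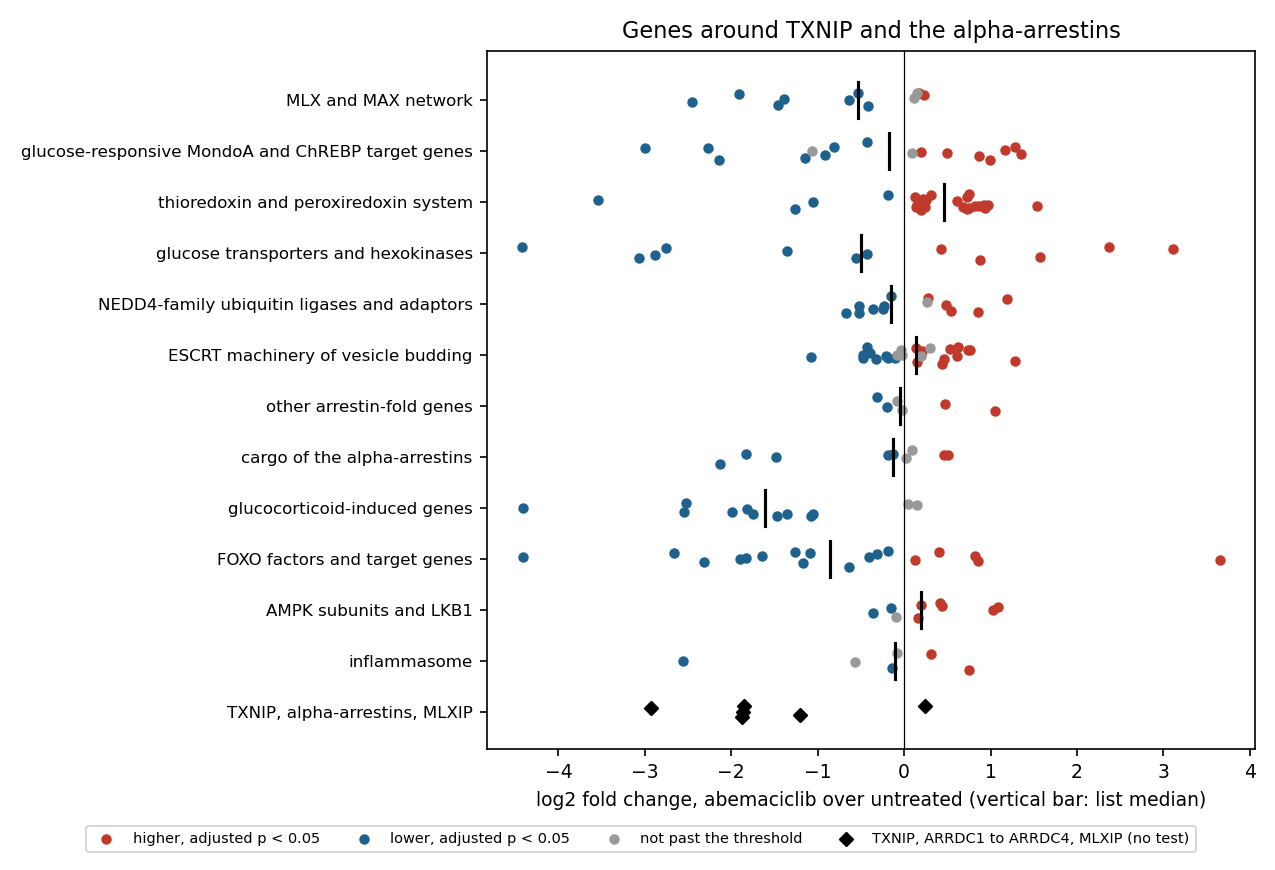
Log2 fold change (abemaciclib over untreated) of each tested gene of the 12 lists, in red where higher and blue where lower at an edgeR adjusted p under 0.05 and in grey otherwise, with the list median as a vertical bar; black diamonds are TXNIP, ARRDC1 to ARRDC4 and MLXIP, shown without a test. The thioredoxin genes lie mostly right of 0 (median 0.46) and the glucocorticoid-related genes mostly left of it (median -1.61). The ligase, ESCRT and other arrestin-fold genes lie on both sides of 0 (medians -0.15, 0.14 and -0.05).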

How the data were processed

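Poly-A RNA of 4 U87MG libraries, made with a stranded TruSeq kit per the labels' protocols, was deposited by the authors as 1 table of expected counts per library, unscaled for depth or length, per the file headers. Tools listed in the submitters' processing notes are RSEM 1.3.1 and STAR 2.7.2b, with build GRCh38. The sources used here do not state the annotation or strand setting.

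Groups came from the titles. Expected counts (6.13% to 6.70% of values not whole) were rounded and tested with edgeR 4.0.16 in R 4.3.3 (filterByExpr, TMM, robust quasi-likelihood, group alone, two-sided, Benjamini-Hochberg over 17207 genes). Standard errors were the size of the log2 fold change over the root of its F statistic. Alternatives were DESeq2 1.42.0, other scalings and filters, a replicate block, and each library left out in turn. Positions and lengths came from GENCODE 29 (96.4% of identifiers matched), promoters from RefSeq.

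The 6 genes and the 17 gene lists (219 entries, 1 without a match in the files) were chosen with earlier results of these data known. In each list outside the markers, the 2 called genes with the highest and the 2 with the lowest log2 fold change at a mean of at least 5 CPM were named, beside genes named for their role and the 3 nearest profiles of TXNIP, ARRDC3 and ARRDC4. Further genes are marked where they were named after their values were seen. A gene named for its role is not reported here. No set test was run. Reads carry no molecular identifiers, so counts are not independent molecules.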

Additional observations from a re-analysis of the deposited data

How the results depend on the processing

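The log2 fold changes of the 6 genes kept their sign in all 9 alternatives and moved by less than the SD of the difference (the root of the summed variances of log2 CPM in both groups), the alternatives being DESeq2, library totals alone, TMM without mitochondrial genes, no low-count filter, a replicate block and the loss of each library. They ranged from -2.96 to -2.87 for TXNIP, -1.26 to -1.11 for ARRDC1, -1.94 to -1.79 for ARRDC2, -1.92 to -1.78 for ARRDC3, -1.92 to -1.78 for ARRDC4 and 0.20 to 0.30 for MLXIP. The replicate block gave 6451 higher and 6657 lower genes, against 6542 and 6757 without it, and same-numbered libraries did not deviate together (correlation -0.0014), so the numbers were not treated as pairs. Called antisense genes numbered 0 with DESeq2 and 0 to 1 with a library left out, against 1 of 2. With a library left out, called microglia markers ranged from 1 to 2 (without abemaciclib replicate 1, 1), against 3, and called genes near silent in U87MG from 1 to 3 (without abemaciclib replicate 2, 1), against 3. The other 219 recomputed values stayed within that SD or, for counts of calls, within 1.5 times. Of 54 genes past the threshold that were named by the list rule or for their role, 48 stayed past it in all alternatives. The 6 that did not are SLC2A1, ARRB1, PRKAB1, GSDMD, NEDD4L and ARRDC3-AS1. With 2 libraries a group, the fit has 2 residual degrees of freedom, and genes of a few counts, such as ARRDC3-AS1 and ITGB4, are limited by depth.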
